A study of Mus musculus with 10 samples.

Results

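Kmt5a, Kmt5b and Kmt5c are the genes of the mouse methyltransferases that act on lysine 20 of histone H4 (H4K20). Their chromatin was examined in cultured muscle stem cells (MuSCs), which rebuild skeletal muscle after injury, by CUT&RUN, a method in which MNase tethered through protein A to a bound antibody cuts out the surrounding chromatin, whose DNA is then sequenced. All peaks whose listed gene symbol was Kmt5a, Kmt5b or Kmt5c were taken. These were 5 of the 44925 H4K20me1 peaks and 7 of the 51322 Pol II S2P peaks, and they gave a value for each of the 3 genes among 14565 genes with an H4K20me1 peak and 11251 genes with a Pol II S2P peak. H4K20me1 is histone H4 carrying 1 methyl group at lysine 20, and Pol II S2P is the elongating form of RNA polymerase II, with phosphate on serine 2 of the C-terminal repeat.

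KMT5A (also SET8 or PR-Set7) places the first methyl group on H4K20 and is destroyed during S-phase by the CRL4-Cdt2 ubiquitin ligase acting on PCNA-bound substrate. KMT5B (SUV4-20H1) turns the monomethyl mark chiefly into the dimethyl mark, and KMT5C (SUV4-20H2) makes the trimethyl mark that is typical of pericentric heterochromatin. The substrate of KMT5B and KMT5C is therefore the product of KMT5A, and H4K20me1 was itself the mark read here over the genes of all these enzymes.

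The genotypes were Pax7CreERT/Suv4-20h1WT (Ctrl) and Pax7CreERT/Suv4-20h1KO (Kmt5b sKO, here sKO), where Suv4-20h1 is the older name of Kmt5b. Both carried the tamoxifen-inducible Cre driven from Pax7, so Ctrl differed from sKO in the floxed Kmt5b alleles, and per the study's methods the mice were of a C57BL/6 background, received tamoxifen as young adults, and gave MuSCs that were enriched with magnetic beads and expanded in culture. Recombination was thus directed to Pax7-expressing cells, and the share of cultured cells that had recombined was not measured here. There were 2 libraries for each genotype and antibody, 8 in all, described by the study as biological replicates, and the labels do not tie them to animals, so p-values measure the spread between these libraries only. The IgG libraries, 2 in all, were not analysed here.

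The values were scores, whole numbers that stand for spike-in normalised coverage of a peak and are not divided by its length. Summed over all peaks, H4K20me1 came to 15218720 to 20432644 per Ctrl library and to 32194136 to 35046570 per sKO library, and Pol II S2P to between 3257665 and 4885638 over both genotypes. The depth in reads is not known from these scores. The study's reporting summary lists uniquely mapped reads, which for each antibody were more in both sKO libraries than in both Ctrl libraries. Of 7 satellite cell and myoblast markers, 5 were listed with an H4K20me1 peak and 5 with a Pol II S2P peak. At Myod1, the gene of the myogenic regulator MyoD, Pol II S2P reached 1329 and 1110 in Ctrl against 887 and 649 in sKO. On the deposited scale this was not called (-0.68 on the log2 scale, limma adjusted p of 1.0). With the libraries scaled to equal totals, Myod1 was called lower in sKO (-0.82, limma adjusted p of 0.000406), as were 0.856% of all genes. The genotypes overlapped in the other 4 (Pax7 0.14, Des 0.05, Vcam1 -0.12 and Itga7 -0.17 on the log2 scale). Of 9 markers of fibroadipogenic, endothelial, leukocyte and fibre cells, 4 were listed with an H4K20me1 peak (Pdgfra, Pecam1, Cdh5, Ptprc) and 3 with a Pol II S2P peak (Pecam1, Cd68, Ckm). For Pol II S2P, Ckm scored 123 and 163 in Ctrl against 276 and 173 in sKO (0.62 on the log2 scale, not called), and Pecam1 and Cd68 overlapped. A gene without a listed peak is not shown to lack the signal.

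The promoters are shown first, because 3 of the 7 Pol II S2P peaks held a transcript start and the genes differed there. Each sequence is the RefSeq window from 250 bases before to 50 bases after a start site in GRCm38.p6, all on the plus strand, with the letters CCAAT or their reverse complement ATTGG in capitals, the element that NF-Y is known to bind. The first and last of the 3 Kmt5a promoters and the single Kmt5c promoter lay wholly inside Pol II S2P peaks, whereas neither of the 2 Kmt5b promoters did.
Kmt5a promoter 1, chr5:124439680-124439979: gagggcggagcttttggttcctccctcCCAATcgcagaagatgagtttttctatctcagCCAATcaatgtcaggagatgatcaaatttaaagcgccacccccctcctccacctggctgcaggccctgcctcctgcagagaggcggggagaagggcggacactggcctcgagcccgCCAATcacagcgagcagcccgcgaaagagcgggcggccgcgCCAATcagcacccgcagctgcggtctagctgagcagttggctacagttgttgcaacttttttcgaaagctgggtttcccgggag
Kmt5a promoter 3, chr5:124446454-124446753: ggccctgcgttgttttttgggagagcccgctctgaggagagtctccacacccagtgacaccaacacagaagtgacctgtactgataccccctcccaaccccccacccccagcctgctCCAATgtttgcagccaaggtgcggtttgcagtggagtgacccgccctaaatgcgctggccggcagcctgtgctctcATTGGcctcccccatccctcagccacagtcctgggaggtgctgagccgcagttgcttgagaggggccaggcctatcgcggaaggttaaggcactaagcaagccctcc
Kmt5c promoter, chr7:4739877-4740176: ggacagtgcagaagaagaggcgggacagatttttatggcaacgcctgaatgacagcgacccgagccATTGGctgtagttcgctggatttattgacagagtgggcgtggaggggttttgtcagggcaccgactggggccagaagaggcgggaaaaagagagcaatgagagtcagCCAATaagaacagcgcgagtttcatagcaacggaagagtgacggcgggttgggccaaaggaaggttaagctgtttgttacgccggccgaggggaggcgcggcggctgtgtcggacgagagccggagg
Kmt5b promoter 2, chr19:3767639-3767938: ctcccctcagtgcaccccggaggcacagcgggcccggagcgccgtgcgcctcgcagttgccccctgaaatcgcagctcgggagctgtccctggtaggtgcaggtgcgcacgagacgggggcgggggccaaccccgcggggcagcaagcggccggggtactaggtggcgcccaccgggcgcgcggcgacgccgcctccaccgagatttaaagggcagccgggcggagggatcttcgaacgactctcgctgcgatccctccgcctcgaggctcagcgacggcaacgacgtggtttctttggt

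Kmt5a promoter 1 held 4 CCAAT matches, counting both strands, Kmt5a promoter 3 held 2, the Kmt5c promoter held 2 and both Kmt5b promoters held 0. Kmt5a promoter 2 (chr5:124445249-124445548), which lay outside any Pol II S2P peak, held 1, so matches were not limited to promoters inside such peaks. Of 32851 RefSeq promoter windows of 300 bases, 37.4% held at least 1 such match, 11.7% at least 2 and 1.06% at least 4. TTTGAA or TTCGAA, the letters of the cell-cycle homology region, matched once in Kmt5a promoter 1 and once in Kmt5b promoter 2, against 19.2% of all windows with a match on either strand. GGGCGG on either strand matched 3 times in each of Kmt5a promoters 1 and 2 and 2 times in Kmt5b promoter 2. It matched 1 time in each of Kmt5a promoter 3 and Kmt5b promoter 1 and 0 times in the Kmt5c promoter. Of all windows, 35.7% held it. No CCAAT match overlapped a match of the other motifs. CpG dinucleotides numbered 18 in Kmt5a promoter 1, 51 in Kmt5a promoter 2 and 9 in Kmt5a promoter 3. They numbered 16 in Kmt5b promoter 1, 38 in Kmt5b promoter 2 and 22 in the Kmt5c promoter, with a median of 7 over all windows. The matches describe letters only.

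H4K20me1 over Kmt5a (ENSMUSG00000049327, chr5:124439930-124462308, plus strand) formed 1 broad peak, chr5:124451600-124467399, of 15.8 kb. It began 11.7 kb downstream of the gene start, contained no annotated transcript start and ran 5091 bases past the gene end into the 3′ end of the convergent neighbour Rilpl2, so 67.8% of its length lay in Kmt5a and 13.1% in exons. Its scores were 476 and 660 in Ctrl against 712 and 739 in sKO. The sKO scores were the higher ones, but sKO replicate 1 exceeded Ctrl replicate 2 by little. The log2 fold change of sKO over Ctrl was 0.37 ± 0.27 (SE) (limma adjusted p of 0.170), and the gene was not called, although it was without Ctrl replicate 2 (0.61, limma adjusted p of 0.00124). A call needed an adjusted p under 0.1 over all genes tested, together with a fold change beyond 0.5 in either direction on the log2 scale.

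Kmt5b (ENSMUSG00000045098, chr19:3767421-3818303, plus strand), the deleted gene, carried H4K20me1 along most of its length in 3 peaks. The first, chr19:3768800-3801399, began 1.38 kb downstream of the gene start and spanned 32.6 kb. Its scores were 1081 and 1356 in Ctrl against 1402 and 1591 in sKO, with a log2 fold change of 0.30 ± 0.27 (SE) and a limma adjusted p of 0.274. The second, chr19:3806400-3813599, lay inside the gene and scored 152 and 223 in Ctrl against 300 and 373 in sKO. The last, chr19:3815600-3820599, covered the 3′ end and scored 99 and 161 in Ctrl against 232 and 232 in sKO. The later peaks were called higher in sKO at log2 fold changes of 0.86 ± 0.31 and 0.87 ± 0.35 (SE), with limma adjusted p of 0.00794 and 0.0150 over all peaks, while the first was not called. At equal totals both lost the call and the sign (-0.07 and -0.05, limma adjusted p of 0.812 and 0.890). Neither later peak was called when an sKO library was left out, with limma adjusted p of 0.109 and 0.263 for the second and 0.179 and 0.194 for the last. In all 3 peaks the sKO scores were the higher ones. Over all H4K20me1 peaks tested, 90.1% were called higher in sKO, so the 3 called among the 5 peaks of these genes (Kmt5b peaks 2 and 3 and the Kmt5c peak) were below that share.

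Summed over its peaks, Kmt5b scored 1332 and 1740 in Ctrl against 1934 and 2196 in sKO. The gene was not called, with a log2 fold change of 0.44 ± 0.27 (SE) and a limma adjusted p of 0.118, but without Ctrl replicate 2 it was (0.63, limma adjusted p of 2.94e-05). On the deposited scale neither H4K20me1 nor the untested Pol II S2P score separated the deleted gene as lower in sKO, and the position of the floxed exon is not given in the sources used here, so these values do not check the genotype labels. The study's RT-qPCR primers for Suv4-20h1, shown because they place the transcript assay inside peak 1, were placed in the spliced transcript Kmt5b-206 of GENCODE.
Forward primer, exon 5 of 13, chr19:3793069-3793089: TCATGGTAACTCGGGATTTGA
Reverse primer, across the junction of exons 5 and 6: AGGAAAGGCGCTAGTGTTCA

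The reverse primer covered the last 10 bases of exon 5, chr19:3793206-3793215, and the first 10 of exon 6, chr19:3796640-3796649, giving an amplicon of 157 bases in the mRNA. Both exons lay inside the first H4K20me1 peak of the gene. An antisense long noncoding RNA gene, Gm16066, overlapped Kmt5b from position 3798615 on, so H4K20me1 over the 3′ part of Kmt5b cannot be told apart from H4K20me1 over Gm16066. Pol II S2P at the Gm16066 peak 1343 bases beyond the end of Kmt5b scored 93 and 97 in Ctrl against 178 and 142 in sKO (log2 fold change 0.74 ± 0.40 SE, limma adjusted p of 1.0).

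Kmt5c (ENSMUSG00000059851, chr7:4740115-4747514, plus strand) carried the largest H4K20me1 change of the 3 genes on the deposited scale, though not relative to the median gene. Its single H4K20me1 peak, chr7:4738000-4751799, spanned 13.8 kb, started 2115 bases before the gene, held 12 annotated transcript starts and covered the whole gene, which made up 53.6% of it. The scores were 155 and 259 in Ctrl against 683 and 642 in sKO. The genotypes were well apart, with the lowest sKO library at more than the sum of both Ctrl libraries. The log2 fold change was 1.72 ± 0.28 (SE), or 3.29-fold, at a limma adjusted p of 1.25e-08, and Kmt5c was called higher in sKO. An H4K20me1 peak listed with no gene 8916 bases upstream of Kmt5c also rose, from 94 and 85 in Ctrl to 263 and 246 in sKO (log2 fold change 1.50 ± 0.36 SE, limma adjusted p of 0.000101).

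**Figure D1:**
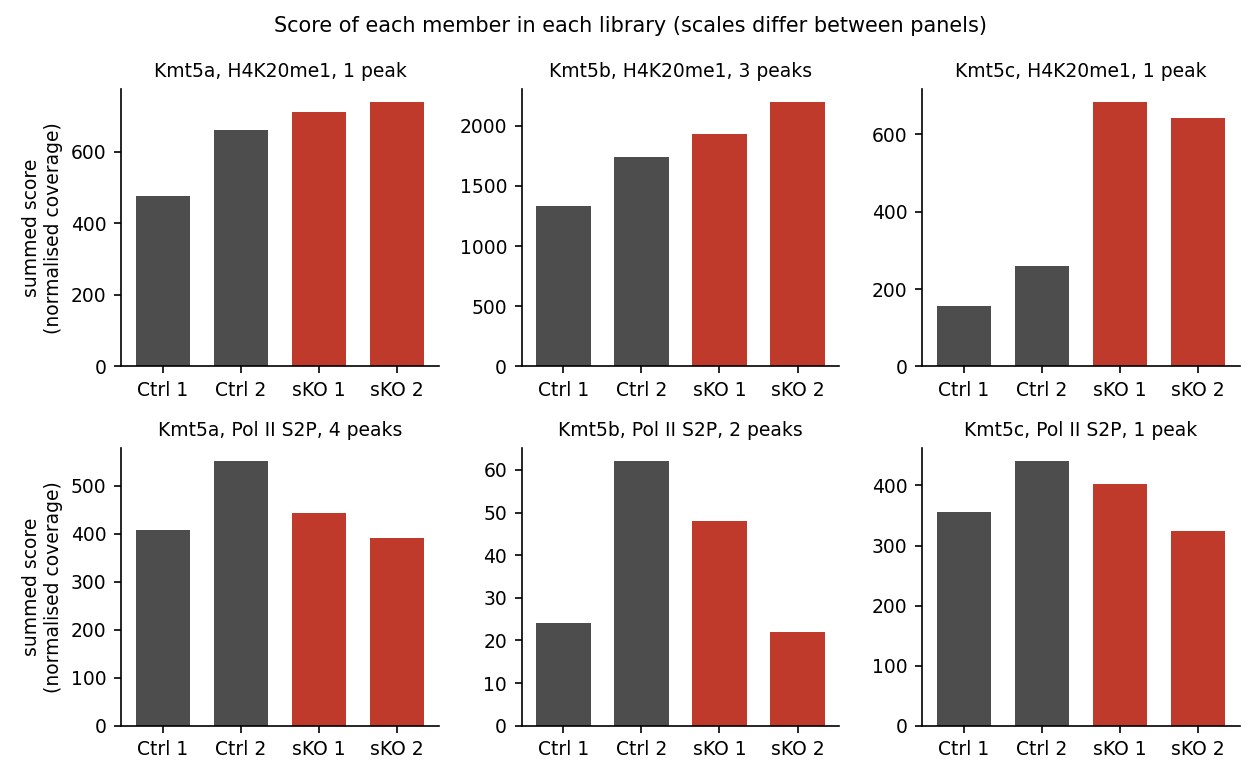
Bars give the summed score (normalised coverage, vertical axes from 0 and different in each panel) of Kmt5a, Kmt5b and Kmt5c in each library, H4K20me1 above and Pol II S2P below, Ctrl in grey and sKO in red. For H4K20me1 all sKO bars exceed all Ctrl bars, most clearly in Kmt5c (155 and 259 against 683 and 642), and for Pol II S2P the genotypes overlap in all 3 genes.

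These changes were read against those of all genes, since the totals differed between libraries and the scale between libraries was not checked. Of 13750 autosomal genes tested for H4K20me1, 92.3% were called higher in sKO, and in 96.5% the lower sKO library exceeded the higher Ctrl library. The median gene had a log2 fold change of 1.11, with quartiles of 0.83 and 1.42. Only 487 genes had a smaller fold change than Kmt5a, which put it at percentile 3.54, and 674 had a smaller one than Kmt5b, at percentile 4.90. Kmt5c stood at percentile 88.9. The fold changes of Kmt5a and Kmt5b thus differed from the median by -0.74 and -0.68 on the log2 scale, and that of Kmt5c by 0.61.

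With each library set against its own median gene, no scale between libraries was needed. Kmt5a lay 0.06 and 0.14 above the median on the log2 scale in Ctrl against at -0.66 and -0.72 in sKO. Kmt5b lay 1.54 above the median in both Ctrl libraries and 0.78 and 0.85 above it in sKO. Kmt5c lay at -1.55 and -1.21 in Ctrl against at -0.72 and -0.92 in sKO. The libraries of the genotypes did not overlap in any of the 3 genes, with differences of -0.79, -0.72 and 0.56, and for each the exact two-sided permutation test gave p = 0.333, the smallest that 2 libraries against 2 allow. By the same measure 42.0% of all genes had both sKO libraries below both Ctrl libraries and 33.4% had both above, so a separation of this kind was common.

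**Figure D2:**
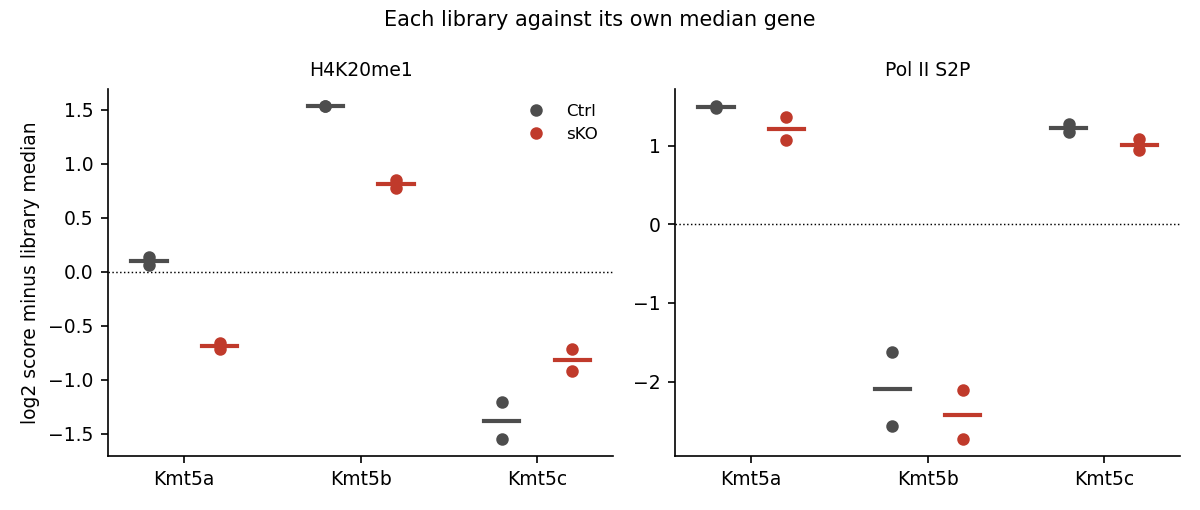
Points give log2(score + 1) of a gene minus the median of all tested genes in the same library, H4K20me1 on the left and Pol II S2P on the right, with short lines at the mean of the 2 libraries of each genotype and a dotted line at the median gene. For H4K20me1, sKO (red) differs from Ctrl (grey) by -0.79 in Kmt5a, -0.72 in Kmt5b and 0.56 in Kmt5c.

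When the libraries were scaled to equal totals, calls in sKO became 24.1% of genes higher and 4.31% lower. On that scale Kmt5a was called lower (log2 fold change -0.56, limma adjusted p of 8.35e-05) and Kmt5c was called higher (0.79, limma adjusted p of 4.3e-05). Kmt5b reached -0.49 with a limma adjusted p of 1.68e-07 and missed the fold limit, and it was called lower at -0.53 when the totals were taken over autosomal genes. The direction for Kmt5a and Kmt5b thus followed the scale, and that for Kmt5c did not, although Kmt5c lost its call under quantile normalisation (0.45). The cause of the difference between scales was not tested.

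**Figure D3:**
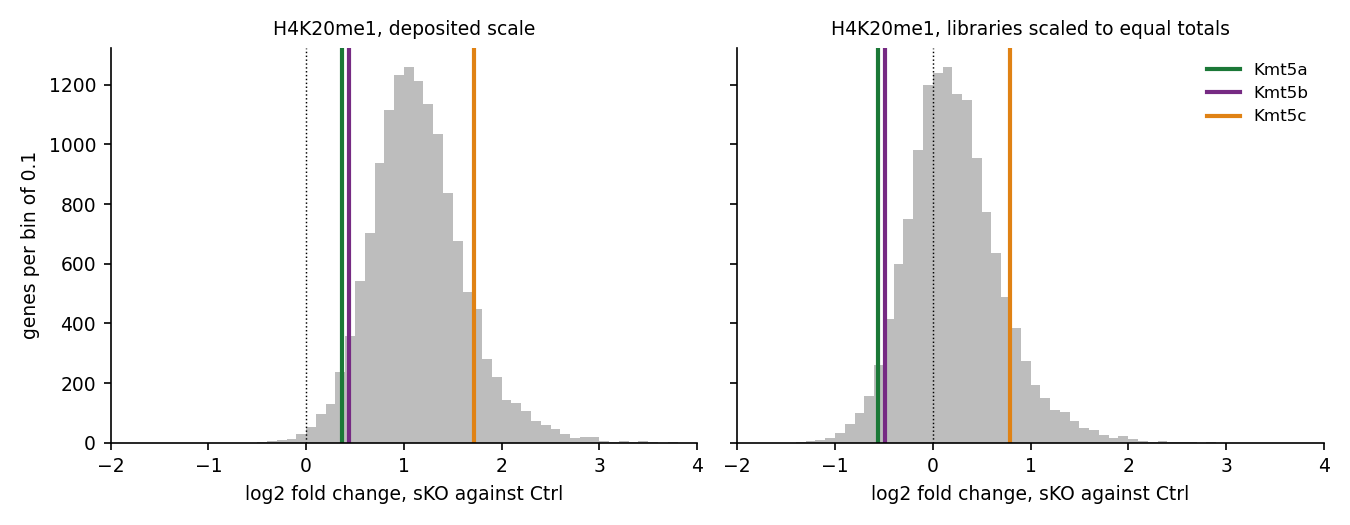
Histograms give the log2 fold change of H4K20me1 (sKO against Ctrl, bins of 0.1) over 13750 genes on the deposited scale (left) and with libraries scaled to equal totals (right), and coloured lines mark the 3 genes. Kmt5a and Kmt5b sit in the lower tail (0.37 and 0.44, then -0.56 and -0.49) and Kmt5c in the upper part (1.72, then 0.79) on both scales. The scaling moves all genes by nearly the same amount, so their places were bound to stay.

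Ratios between the genes inside a library are also free of the scale. Their differences between genotypes restate the fold changes above, gene against gene, so they are not separate results. The log2 ratio of Kmt5c to Kmt5a was -1.61 and -1.35 in Ctrl against -0.06 and -0.20 in sKO, a difference of 1.35. That of Kmt5c to Kmt5b was -3.10 and -2.74 in Ctrl against -1.50 and -1.77 in sKO, a difference of 1.28. Kmt5b against Kmt5a gave 1.48 and 1.40 in Ctrl against 1.44 and 1.57 in sKO, which overlapped. The exact two-sided permutation p was 0.333 for both ratios with Kmt5c (0.50 after Benjamini-Hochberg adjustment over 3 pairs) and 0.667 for the third.

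Per kb of peak, the H4K20me1 levels of the 3 genes drew together in sKO. In Ctrl the mean score per kb was 35.9 for Kmt5a, 34.3 for Kmt5b and 15.0 for Kmt5c, against 23.2 for the median gene, and in sKO it was 45.9, 46.1 and 48.0, against 50.3. Kmt5a (30.1 and 41.8 per kb) and Kmt5b (29.7 and 38.8) did not differ beyond the spread of the Ctrl libraries, and Kmt5c (11.2 and 18.8) lay below both. In sKO the ranges of all 3 genes overlapped, with 45.1 and 46.8 for Kmt5a, 43.2 and 49.0 for Kmt5b, and 49.5 and 46.5 for Kmt5c. Over the 5 single peaks the ratio of the highest to the lowest score per kb was 2.95 and 2.23 for Ctrl but 1.19 and 1.12 for sKO. The same narrowing was present over all 40902 tested H4K20me1 peaks, where the ratio of the upper to the lower quartile of score per kb was 1.52 and 1.59 in Ctrl against 1.24 and 1.25 in sKO. Peaks low in Ctrl could be listed through their sKO signal, and the part of this selection in the narrowing was not tested.

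Among the listed peaks, the change of a peak went with its starting level. To keep the starting level apart from the change, peaks were sorted by score per kb in Ctrl replicate 1 and the change was taken from Ctrl replicate 2. The median change was 1.47 on the log2 scale in the lowest quartile, 1.06 in the next, 0.85 in the one above and 0.58 in the highest. Peaks were a union over libraries and were kept by their mean over all of them, so a peak low in Ctrl could enter through sKO. Such a selection favours large changes in the lowest quartile, and its part in this order was not tested. The Kmt5c peak fell in the lowest quartile and changed by 1.35, and 40.8% of the peaks of that quartile changed less. The Kmt5a peak and the first Kmt5b peak fell in the highest quartile and each changed by 0.14, with 8.80% and 8.97% of that quartile below them. Kmt5b peaks 2 and 3 fell in the quartile from 18.5 to 22.5 per kb and changed by 0.58 and 0.52, with 24.2% and 20.3% of its peaks below. Kmt5c was therefore near the middle of its quartile, and the Kmt5a peak and Kmt5b peak 1 were low within theirs. The highest quartile ran from 22.5 to 72.5 per kb, and the Kmt5a peak and Kmt5b peak 1 started at 30.1 and 33.2 in Ctrl replicate 1. A quartile this wide does not hold the starting level alike, and peaks of equal starting level were not compared.

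**Figure D4:**
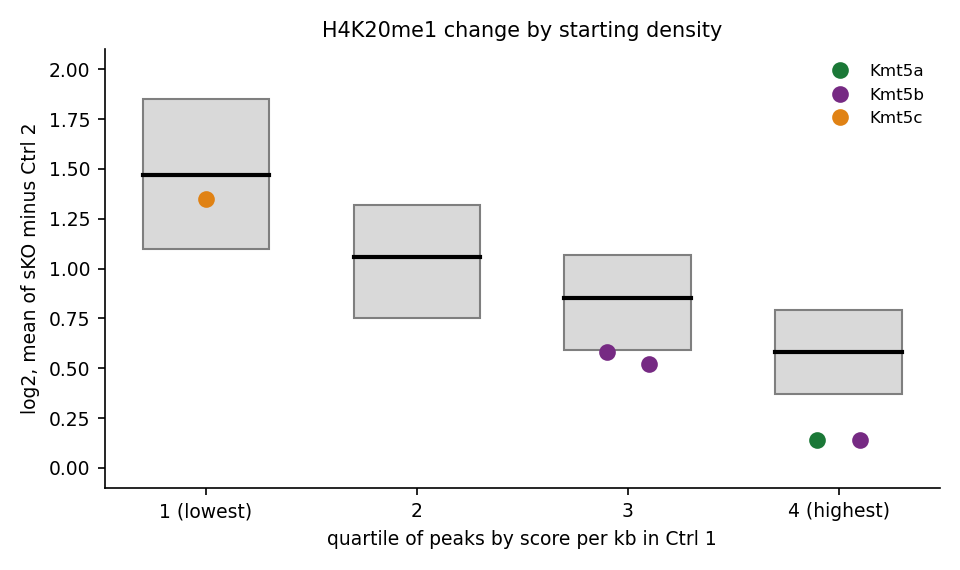
Grey boxes span the lower to upper quartile, with a line at the median, of the H4K20me1 change (mean log2(score + 1) of both sKO libraries minus that of Ctrl replicate 2) for all tested peaks, grouped by score per kb in Ctrl replicate 1. Coloured points are the 5 peaks of the 3 genes, with Kmt5c (1.35) inside the box of the lowest quartile and Kmt5a and Kmt5b peak 1 (both 0.14) under the box of the highest.

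Inside Kmt5b the shares of the peaks differed between the libraries of the genotypes. The first peak held 81.2% and 77.9% of the gene's H4K20me1 score in Ctrl against 72.5% and 72.4% in sKO, a difference of -7.07 percentage points. The share of the second peak was 11.4% and 12.8% in Ctrl against 15.5% and 17.0% in sKO, and that of the last peak 7.43% and 9.25% in Ctrl against 12.0% and 10.6% in sKO. None of the 3 shares overlapped between genotypes (exact two-sided permutation p = 0.333 for each, the smallest possible). The shares add up to the whole, so they are not separate results. How many other genes have shares that separate in this way was not counted. The peak that carried most of the gene's signal started at 37.4 per kb in Ctrl and the other peaks at 26.0 each, and in sKO the 3 stood at 45.9, 46.7 and 46.4 per kb.

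The surroundings of each gene were compared with it. Within 1 Mb of Kmt5a there were 62 other H4K20me1 peaks with a median log2 fold change of 0.87, and 6 of them changed less than the Kmt5a peak. Within 1 Mb of Kmt5b the 59 other peaks had a median of 1.13 and 3 changed less than the first Kmt5b peak. Around Kmt5c the median of 49 other peaks was 1.14, and 39 changed less than the Kmt5c peak. Next to Kmt5a, the H4K20me1 peak over Sbno1 scored 1875 and 2490 in Ctrl against 3097 and 3299 in sKO (log2 fold change 0.56 ± 0.28 SE, limma adjusted p of 0.0504), which was called higher by a small margin.

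Of the 7 Pol II S2P peaks, 3 held an annotated transcript start, 2 in Kmt5a and 1 in Kmt5c, and neither peak of Kmt5b did. Kmt5a had 4 peaks. The first, chr5:124439408-124440509, spanned the gene start and promoter 1, and scored 274 and 344 in Ctrl against 267 and 254 in sKO, the sKO values being the lower ones. The third, chr5:124446174-124447056, spanned promoter 3 and scored 102 and 138 in Ctrl against 119 and 103 in sKO. The 2 smaller peaks scored 29, 43, 34 and 25 (chr5:124444902-124445152, 97 bases before promoter 2) and 4, 26, 23 and 10 (chr5:124455038-124455263), in the order Ctrl 1, Ctrl 2, sKO 1 and sKO 2. Only this last peak lay inside the H4K20me1 peak of Kmt5a, and the others ended 4544 to 11091 bases before it. The log2 fold changes of the promoter peaks were -0.24 ± 0.39 and -0.10 ± 0.40 (SE), with a limma adjusted p of 1.0 for each. Peak 1 held 67.0% and 62.4% of the Kmt5a Pol II S2P score in Ctrl against 60.3% and 64.8% in sKO, which overlapped, while peak 3 held 24.9% and 25.0% in Ctrl against 26.9% and 26.3% in sKO (exact two-sided permutation p = 0.333).

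Kmt5c had 1 Pol II S2P peak, chr7:4739497-4740276, over its start and inside its H4K20me1 peak. It scored 356 and 440 in Ctrl against 403 and 325 in sKO, with overlapping genotypes, a log2 fold change of -0.13 ± 0.42 (SE) and a limma adjusted p of 1.0. The 3.29-fold higher H4K20me1 over Kmt5c was thus not accompanied by a detectable change of Pol II S2P at these 4 libraries, in which the SE would allow a change of either sign.

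Kmt5b had 2 small Pol II S2P peaks. One, chr19:3768705-3769018, lay in an intron 1284 bases downstream of the gene start and 767 bases beyond promoter 2, and scored 17 and 36 in Ctrl against 26 and 12 in sKO. The other, chr19:3808693-3808927, scored 7 and 26 in Ctrl against 22 and 10 in sKO. Both overlapped H4K20me1 peaks. Their sum, 24 and 62 in Ctrl against 48 and 22 in sKO, had a mean of 39.0, under the minimum of 50 for testing, and its log2 difference of -0.24 changed sign with the library left out, from -0.91 to 0.43.

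**Figure D5:**
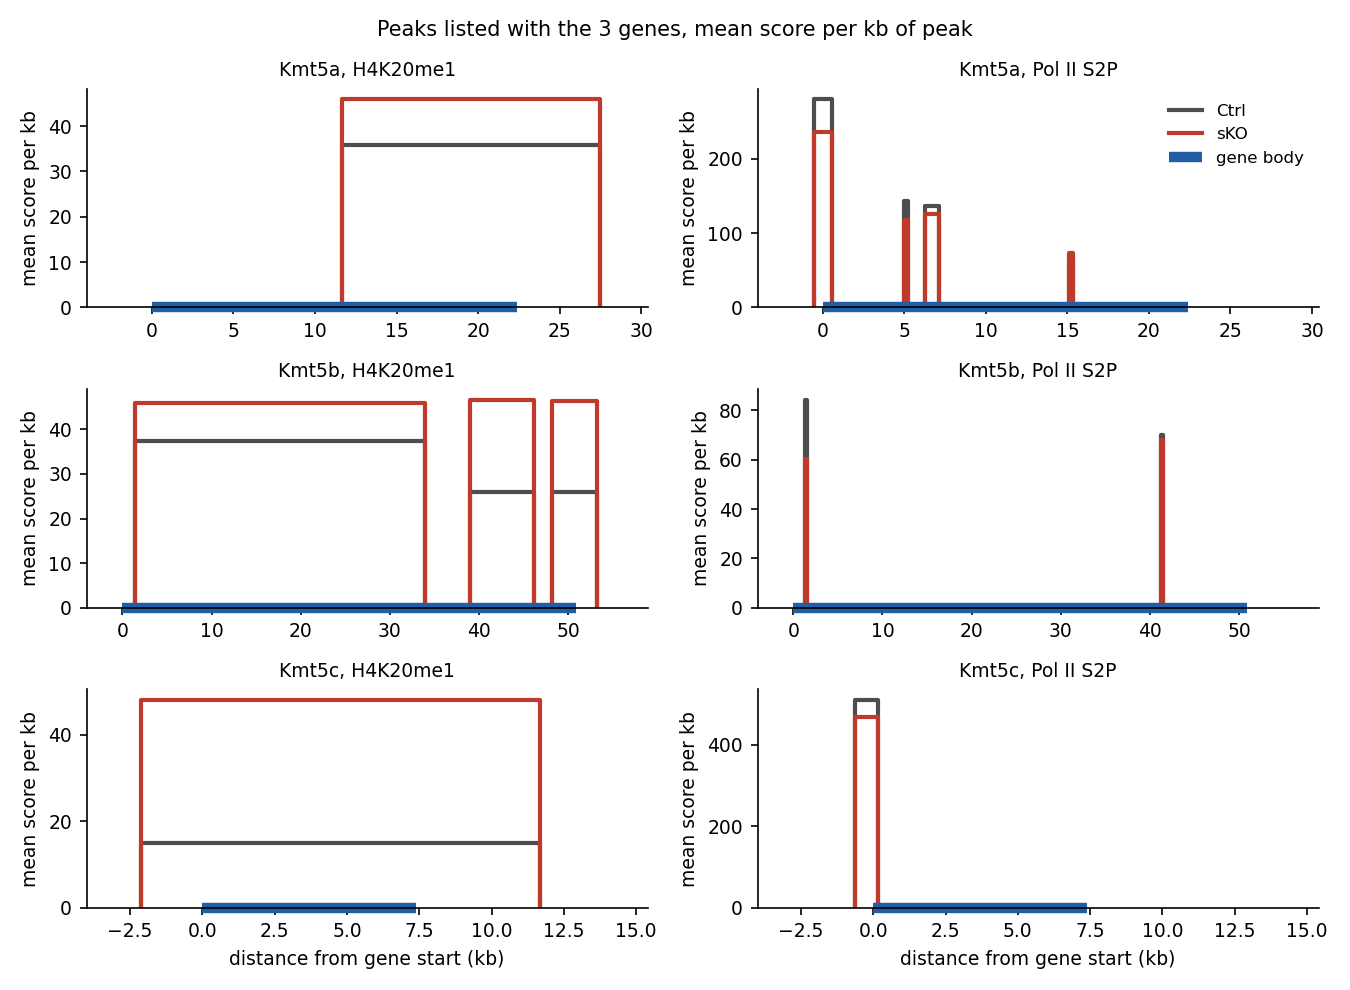
Boxes give the position (kb from the gene start) and the mean score per kb of peak (vertical axes from 0, different in each panel) of all peaks listed with the 3 genes, in Ctrl (grey) and sKO (red), with the gene body as a blue bar. H4K20me1 lies over the gene bodies and, in Kmt5c, over the start as well, whereas the highest Pol II S2P boxes stand at the starts of Kmt5a (280 per kb in Ctrl) and Kmt5c (510 per kb in Ctrl).

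Per kb of peak, the order of Pol II S2P was Kmt5c above Kmt5a above Kmt5b. The libraries ranged from 417 to 564 per kb in Kmt5c, from 159 to 224 in Kmt5a and from 40.1 to 113 in Kmt5b, without overlap between genes. The medians over all tested genes were 139 in Ctrl and 151 in sKO. In Ctrl, 99.9% of tested genes had a lower Pol II S2P score per kb than Kmt5c and 0.938% a lower one than Kmt5b. Kmt5b itself was not tested, because its mean score of 39.0 was under the minimum for testing. Genes with mean scores as low as its own were thus left out of this ranking. The part of that filter in the low place of Kmt5b was not tested. This order rests on peak length, since Kmt5c had 1 peak of 0.780 kb at its start and Kmt5a 4 peaks of 2.46 kb together. By summed score Kmt5a stood above Kmt5c, with Ctrl means of 480.0 against 398.0. The order of the H4K20me1 levels per kb in Ctrl was the opposite for Kmt5c, which was lowest.

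Summed over its peaks, Kmt5a scored 409 and 551 for Pol II S2P in Ctrl against 443 and 392 in sKO (log2 fold change -0.19 ± 0.42 SE, limma adjusted p of 1.0). Of 8531 genes tested for Pol II S2P, 0% were called in either direction by limma, with 100 genes at an unadjusted p under 0.05, and of the single peaks 0.0492% were called. These 100 genes are fewer than that limit would give if no gene changed. The test was therefore cautious, and the lack of calls does not show a lack of change. Relative to the median gene of the library, Kmt5a lay at 1.48 and 1.51 in Ctrl against 1.07 and 1.36 in sKO on the log2 scale, and Kmt5c at 1.28 and 1.18 in Ctrl against 0.94 and 1.09 in sKO. Both genes were thus lower in both sKO libraries, by 0.28 and 0.22 (exact two-sided permutation p = 0.333 for each), an order that 20.6% of all genes showed. Kmt5b, at -2.56 and -1.62 in Ctrl against -2.11 and -2.73 in sKO, overlapped. The within-library Pol II S2P ratios of the 3 genes also overlapped, with differences of -0.05 for Kmt5b to Kmt5a, 0.06 for Kmt5c to Kmt5a and 0.11 for Kmt5c to Kmt5b.

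The other genes of H4K20 methylation were taken from a list of erasers, readers, KMT5A turnover factors and partners. Of its 26 genes, 22 had an H4K20me1 peak and 19 were tested (3 lie on X). Of these, 16 were called higher and 0 lower, with a median log2 fold change of 0.85 beside 1.11 for all genes, of which 92.3% were called higher. At equal totals 0 were called higher and 2 lower (Phf2 at -0.59 and Rad23b at -0.91), where 24.1% of all genes were called higher and 4.31% lower. The highest were Rb1, the retinoblastoma protein gene (1.35 ± 0.28 SE), and L3mbtl1, a reader of mono- and dimethylated H4K20 (1.33 ± 0.27 SE). The 3 that were not called were Rad23b (0.01), Phf2 (0.34), a demethylase gene of the PHF8 family, and Cbx1 (0.49), the HP1 beta gene. Only Rad23b and Phf2 had a smaller fold change than Kmt5a, and all 19 had a smaller one than Kmt5c. The remaining 14 called genes were L3mbtl3, Orc1, Ncapd3, Ncapg2, Tonsl, Bard1, Dtl, Ddb1, Cul4a, Skp2, Cbx3, Cbx5, Rbl1 and Rbl2, from 0.68 to 1.32.

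Among 31 other histone lysine methyltransferase genes, 27 had an H4K20me1 peak, 26 were tested, 16 were called higher and 0 lower, with a median log2 fold change of 0.67. At equal totals the calls turned to 2 higher (Smyd1 and Smyd3) and 8 lower (Kmt2a, Kmt2d, Setd5, Ehmt2, Nsd1, Nsd2, Dot1l and Prdm2). On that scale 24.1% of all genes were called higher and 4.31% lower. Smyd1, a muscle methyltransferase gene (1.56 ± 0.27 SE), and Smyd3 (1.54 ± 0.28 SE) were highest, and Dot1l, the H3K79 methyltransferase gene (0.05 ± 0.28 SE), and Nsd2 (0.13 ± 0.28 SE) lowest. The other genes without a call were Kmt2a, Kmt2d, Setd2, Setd5, Ehmt1, Ehmt2, Nsd1 and Prdm2. Kmt5a had a larger fold change than 6 and Kmt5b than 8 of the 26, and none of the 26 exceeded Kmt5c. The other called genes were Kmt2b, Kmt2c, Kmt2e, Setd1a, Setd1b, Setd3, Setd7, Setdb1, Setdb2, Ezh1, Ezh2, Nsd3, Ash1l and Smyd2. Counted per list, the called shares lay under the 92.3% of all genes.

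For Pol II S2P, 15 genes of the H4K20 list and 23 of the other methyltransferases were tested and 0 were called by limma in either list on the deposited scale, with medians of 0.02 and 0.13 beside 0.09 for all genes. The extremes of the H4K20 list were Cbx1 (0.56 ± 0.42 SE) and Rb1 (0.29 ± 0.41 SE) at the top and Dtl (-0.74 ± 0.45 SE) and Bard1 (-0.52 ± 0.46 SE) at the bottom. Those of the other methyltransferases were Ehmt1 (0.59 ± 0.52 SE) and Smyd2 (0.47 ± 0.47 SE) at the top and Smyd1 (-0.39 ± 0.43 SE) and Kmt2b (-0.22 ± 0.41 SE) at the bottom. At equal totals 1 of these 23 was called lower, Smyd1 (-0.53, limma adjusted p of 0.0218), and 0 higher. Of the 15 of the H4K20 list, 3 were called lower, given below, and 0 higher, beside 0.856% of all genes called lower.

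The Pol II S2P values of the KMT5A turnover factors differed in direction, and none was called on the deposited scale. Dtl, the gene of the Cdt2 substrate receptor, scored 98 and 107 in Ctrl against 69 and 54 in sKO. Pcna, the gene of the replication clamp on which KMT5A is recognised, scored 233 and 316 in Ctrl against 230 and 162 in sKO. Cul4a, the gene of the ligase scaffold, scored 226 and 245 in Ctrl against 177 and 164 in sKO. In each the sKO libraries lay below the Ctrl libraries, in Pcna by a margin of 3 between the nearest libraries. Ddb1, the gene of the adaptor of the same ligase, scored 188 and 292 in Ctrl against 306 and 257 in sKO (0.26 on the log2 scale), and Skp2 scored 100 and 126 in Ctrl against 96 and 103 in sKO (-0.17), and both overlapped. On equal totals 3 of the 5 turnover genes with a Pol II S2P peak were called lower, at log2 fold changes of -0.88 for Dtl, -0.63 for Pcna and -0.60 for Cul4a (limma adjusted p of 0.0956, 0.0452 and 0.0946), where 0.856% of all genes were. With totals over autosomal genes or under quantile normalisation only Pcna kept its call, and with every library scale left as deposited none was called. Kmt5a itself was not called on equal totals (-0.33, limma adjusted p of 0.263).

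The genes most like each member over the 8 libraries, by the distance of their log2(score + 1) values among 7413 other genes listed in both tables, were Ldha, Rnd3 and Akap8 for Kmt5a (distances of 0.35, 0.44 and 0.56), Pptc7, Fam193b and Plbd2 for Kmt5b (0.70, 0.77 and 0.86), and Cavin1, Stat6 and Brap for Kmt5c (0.45, 0.54 and 0.57). Ldha, for example, reached 471 and 593 in Ctrl against 795 and 760 in sKO for H4K20me1, close to Kmt5a. At Cavin1, H4K20me1 scored 156 and 249 in Ctrl against 560 and 658 in sKO, and Pol II S2P scored 352 and 450 in Ctrl against 403 and 257 in sKO, a pattern like that of Kmt5c.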

How the data were processed

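H4K20me1 and Pol II S2P were profiled by CUT&RUN in 2 Ctrl and 2 sKO libraries each. Per the submitters' processing notes and the study's methods, the authors trimmed reads with Trimmomatic 0.39, aligned them to mm10 (GRCm38) with STAR 2.7.3a, kept unique alignments, removed duplicates with Picard 2.21.7 and normalised coverage by S2 cell spike-in. The deposited values are a score, a rounded whole number per union peak and library, so no test for read counts was used, and spike-in read numbers were not part of the tables used. The deposited fraction of a peak inside its gene was recomputed from coordinates.

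The score of a gene was the sum of its peaks. Genotypes were compared with limma 3.58.1 in R 4.3.3 (trend, genotype only) on log2(score + 1), for all autosomal genes or peaks with a mean over 50, with Benjamini-Hochberg adjustment over all of them. Fold changes on this scale understate those of low scores. The procedure was tested on simulated data with 200 changed genes, a variance of 4 times the mean and 1 scale for all libraries. That test does not cover differences of scale between libraries or changes shared by most genes. Other values came from Python 3.11.15, numpy 2.4.6, pandas 2.3.3 and exact permutation tests, and promoters from RefSeq (GRCm38.p6), which held all 3 genes. Genes named besides the members and their neighbours within 20 kb were the 3 closest in pattern, the 2 highest and 2 lowest of each list, and those called. Pcna, Cul4a, Ddb1 and Skp2 for Pol II S2P, and the spread of levels per kb, were singled out after their values were seen. The members and lists were chosen with earlier results of these data known. Same-numbered libraries deviated together with a correlation of 0.04 (H4K20me1) and -0.04 (Pol II S2P).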

Additional observations from a re-analysis of the deposited data

How the results depend on the processing

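Kmt5c H4K20me1 stayed higher and called in all alternatives but quantile normalisation (0.45), over a range of 1.35 to 2.09 with 1 library left out. For Kmt5a and Kmt5b the H4K20me1 fold change turned negative at equal totals (-0.56 and -0.49), at totals over autosomal genes, an alternative chosen after seeing the data (-0.59 and -0.53), and under quantile normalisation (-0.82 and -0.57). By construction these scalings take out any shift that all genes share. Equal totals also turned the peaks (-0.56 for Kmt5a, -0.63, -0.07 and -0.05 for Kmt5b peaks 1, 2 and 3). Without 1 library, Kmt5a ranged from 0.14 to 0.61 and Kmt5b from 0.24 to 0.63. The highest value of each came without Ctrl replicate 2, from a fit with 1 Ctrl library that holds no spread between Ctrl libraries.

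Genes called higher for H4K20me1 numbered 12690, against 3308 at equal totals, 3021 at autosomal totals, 1422 after quantile normalisation and 5232 to 13377 without 1 library (7349 without sKO replicate 1 and 5232 without sKO replicate 2). Genes called lower numbered 0, against 592, 717, 1531 and 0 to 14. For Pol II S2P, genes called higher numbered 0, against 108, 137 and 112 under these scalings, 1 with no filter, 5 with no trend and 0 to 0 without 1 library. Genes called lower numbered 0, against 73, 52 and 29, 1 with no trend and 0 to 2 without 1 library.

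Without 1 library, the Pol II S2P fold changes spanned 0: -0.40 to 0.03 for Kmt5a, -0.32 to 0.12 for its peak 3, and -0.28 to 0.03 for Kmt5c and its peak. So did Kmt5b relative to the median gene (-0.80 to 0.14), the Pol II S2P ratios of Kmt5b to Kmt5a (-0.51 to 0.40), Kmt5c to Kmt5a (-0.01 to 0.13) and Kmt5c to Kmt5b (-0.40 to 0.63), and the shares of Kmt5a peaks 1 (-4.46 to 0.10), 2 (-1.07 to 0.23) and 4 (-0.85 to 2.89). No Pol II S2P value of the 3 genes was called under any alternative. The peak of Kmt5c has 20.8% of its length in the gene, so the alternative with peaks mainly inside the gene gives no Pol II S2P value for it.

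The replicate numbers are not shown to pair the libraries. With the replicate number as a block, 12718 genes were called higher for H4K20me1, and the log2 fold changes of Kmt5a, Kmt5b and Kmt5c stayed at 0.37, 0.44 and 1.72 with limma adjusted p of 0.0696, 0.0531 and 4.1e-14. No call of these genes changed under the block. Pol II S2P gave -0.19 for Kmt5a and -0.13 for Kmt5c.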
